A study of Bos taurus with 6 samples.

Results

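The miRNAs described here are the 8 members of the proximal part of the imprinted DLK1-DIO3 region, bta-miR-493, bta-miR-665, bta-miR-431, bta-miR-433, bta-miR-127, bta-miR-432, bta-miR-136 and bta-miR-370, which were taken by name from the 1028 mature bovine miRNAs of the table. They were measured by small RNA sequencing in extracellular vesicles (EVs), the small membrane-bound particles that cells release, isolated here from medium in which bovine oviductal organoids had grown. Such organoids are epithelial structures that isolated oviduct cells form in a gel. 3 libraries came from heat stress (HS) organoids, exposed to 42 °C on the final day in culture, and 3 from thermoneutral organoids kept at 37 °C throughout. All organoids were grown in the same way from diestrus oviducts of slaughtered cattle, each replicate (A, B or C) was a pool of 2 animals, and the same oviducts were represented at both temperatures, although no library is tied to given animals. In every account of single libraries, values stand in the order of replicates A, B and C. Both groups are limited as a model of the oviduct by the abattoir source, the single stage of the cycle and the synthetic matrix.

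The DLK1-DIO3 region is expressed by parent of origin. Its protein genes DLK1, RTL1 and DIO3 are read from the paternal chromosome, while the noncoding RNAs MEG3 and MEG8 and the miRNAs of the region are read from the maternal one. In mouse and sheep, several of the proximal miRNAs lie antisense to RTL1, a retrotransposon-derived gene needed for the placenta, and can cleave its transcript. The miRNAs of the region are known above all from embryo, placenta and brain.

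RefSeq's bovine gene entries (assembly ARS-UCD2.0), used only for gene order, held an entry for each of the 8 members, all on the same chromosome and in the order MIR493, MIR665, MIR431, MIR433, MIR127, MIR432, MIR136 and MIR370. They lay within 13 neighbouring entries, which also included RTL1, the antisense RNA PEG11AS and MEG8. The entries of 5 members (MIR431, MIR433, MIR127, MIR432 and MIR136) overlapped that of RTL1, and those of 3 (MIR432, MIR136 and MIR370) overlapped that of MEG8. Between MIR370 and MIR379, the first miRNA of the distal cluster, there were 38 other entries.

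The values in the table are TMM-adjusted counts per 1000000 reads (CPM), a normalised abundance. The miRNA reads behind them were recovered, since each value above 0 is a whole multiple of the smallest one in its library. The libraries held from 72580 to 213877 miRNA reads at 42 °C and from 31640 to 150214 at 37 °C, and bta-miR-1246 took between 25.0% and 71.8% of them. A single read was worth from 5.53 CPM (replicate B at 42 °C) to 28.7 CPM (replicate C at 42 °C). Of the epithelial miRNAs listed as markers, 8 of 8 in the table had reads, and their summed level overlapped between the groups, from 16843 to 58873 at 42 °C, per 1000000 reads left once miR-1246 is removed, and from 32734 to 48349 at 37 °C.

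Of the 8 members, 6 had at least 1 read and 5 reached a mean of 10 CPM in at least 1 group, the study's definition of expressed. Together the members held 32, 311 and 61 reads in the libraries at 42 °C, against 259, 552 and 441 reads in those at 37 °C. As a share of all miRNA reads this was 0.0308% (95% Wilson interval 0.0218 to 0.0435%), 0.145% (0.130 to 0.162%) and 0.0840% (0.0654 to 0.108%) at 42 °C, and 0.819% (0.725 to 0.924%), 0.367% (0.338 to 0.399%) and 0.315% (0.287 to 0.346%) at 37 °C. The members thus took a smaller share of the reads in every 42 °C library than in any of the 37 °C libraries. Replicate A at 37 °C, with the highest share, was also the library with the fewest miRNA reads (31640), and the part of depth in these shares was not tested. Intervals cover counting error only.

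Among the members, bta-miR-127 was the most abundant in both groups by mean CPM, followed by bta-miR-370 and bta-miR-493. These 3 held between 93.9% and 98.9% of the members' reads in every library. By mean CPM over the table, bta-miR-127 ranked 67 at 42 °C and 41 at 37 °C, while bta-miR-370 ranked 93 at 42 °C against 43 at 37 °C. The ranks of bta-miR-493 were 97 at 42 °C and 65 at 37 °C. The other members with reads, bta-miR-432, bta-miR-433 and bta-miR-431, were far lower, with at most 16 reads in a library.

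bta-miR-370, the last member in gene order, which represses CPT1A, an enzyme that admits fatty acids to mitochondria, in human liver cells, was the only member to pass the test between the temperatures. It stood at 95.4, 304.3 and 430.8 CPM at 42 °C, against 1684, 1093 and 1256 CPM at 37 °C. Behind these values were 12, 55 and 15 reads in the 42 °C libraries and 99, 186 and 170 in the 37 °C libraries. The 3 values at 42 °C were all below the 3 at 37 °C, and the highest of them was under the lowest at 37 °C by a wide margin. The means were 277 ± 169 CPM at 42 °C and 1344 ± 305 CPM at 37 °C (SD, n = 3 each). Its log2 fold change of 42 °C over 37 °C was -2.45 (standard error 0.55, 95% interval -3.64 to -1.25, adjusted p = 0.029, limma with Benjamini-Hochberg adjustment over 251 miRNAs). Fold changes are on the scale of log2(CPM + 10), and the added 10 shrinks the changes of miRNAs with low counts. They are also differences between means of logs, which can exceed the change in pooled reads. Pooled over the libraries of each group, the ratio of 42 °C to 37 °C was 0.192 (exact 95% interval 0.150 to 0.244, counting error only). In EV RNA from a culture, fewer vesicles of a given cell type and less of a miRNA per vesicle cannot be told apart.

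Of all 251 miRNAs tested, 2 were called as lower at 42 °C (0.797%), that is, with an adjusted p below 0.05 together with a 2-fold or larger change, and bta-miR-370 was 1 of them. On the recovered reads, edgeR called 3 miRNAs as lower (1.2%) and DESeq2 called 6 (2.39%), and bta-miR-370 was the only member called by each, at an adjusted p of 0.020 (edgeR) and 0.0021 (DESeq2). The limma call depended on single libraries and on settings. The adjusted p missed 0.05 when replicate B at 42 °C was left out (0.071), when replicate A, B or C at 37 °C was left out (0.10, 0.18 and 0.13), with a pseudocount of 1 (adjusted p = 0.063) and with no intensity trend (adjusted p = 0.088, all limma), while the log2 fold change stayed between -3.12 and -1.84 in all 16 alternatives.

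bta-miR-127, known in mouse for silencing Rtl1 in the placenta, was the leading member but did not pass the test. It had 135, 1145 and 718 CPM at 42 °C, against 1905, 1339 and 1345 CPM at 37 °C. These values rest on 17, 207 and 25 reads in the 42 °C libraries and on 112, 228 and 182 in the 37 °C libraries. The groups did not overlap, but replicate B at 42 °C lay close to the lower libraries at 37 °C and replicate A at 42 °C far beneath all others. With means of 666 ± 507 CPM at 42 °C and 1530 ± 325 CPM at 37 °C (SD, n = 3 each), the log2 fold change was -1.61 (standard error 0.65, 95% interval -3.01 to -0.22, adjusted p = 0.21, limma). Without replicate A at 42 °C it was -0.73 (adjusted p = 0.46, limma). On the recovered reads the log2 fold change was smaller, -1.26 in edgeR and -1.29 in DESeq2. The pooled ratio of 42 °C to 37 °C was 0.509 (exact 95% interval 0.436 to 0.593, counting error only).

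bta-miR-493, the first member in gene order, which restrains liver metastasis of human colon cancer cells, did not pass the test either. It stood at 15.9, 166 and 546 CPM at 42 °C, against 748, 676 and 621 CPM at 37 °C. In reads this was 2, 30 and 19 for the 42 °C libraries and 44, 115 and 84 for the 37 °C libraries. All libraries at 42 °C were below those at 37 °C, with replicate C at 42 °C nearest to them, and the libraries at 37 °C were close together. The means were 243 ± 273 CPM at 42 °C and 681 ± 64.1 CPM at 37 °C (SD, n = 3 each), and the log2 fold change was -2.34 (standard error 0.86, 95% interval -4.21 to -0.47, adjusted p = 0.17, limma). It passed the test without replicate C at 42 °C (log2 fold change -3.35, adjusted p = 0.011, limma), and without replicate A at 42 °C it was -1.14 (adjusted p = 0.32, limma). On the recovered reads the log2 fold change was smaller, -1.69 in edgeR and -1.69 in DESeq2. The pooled ratio of 42 °C to 37 °C was 0.224 (exact 95% interval 0.162 to 0.304, counting error only).

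**Figure D1:**
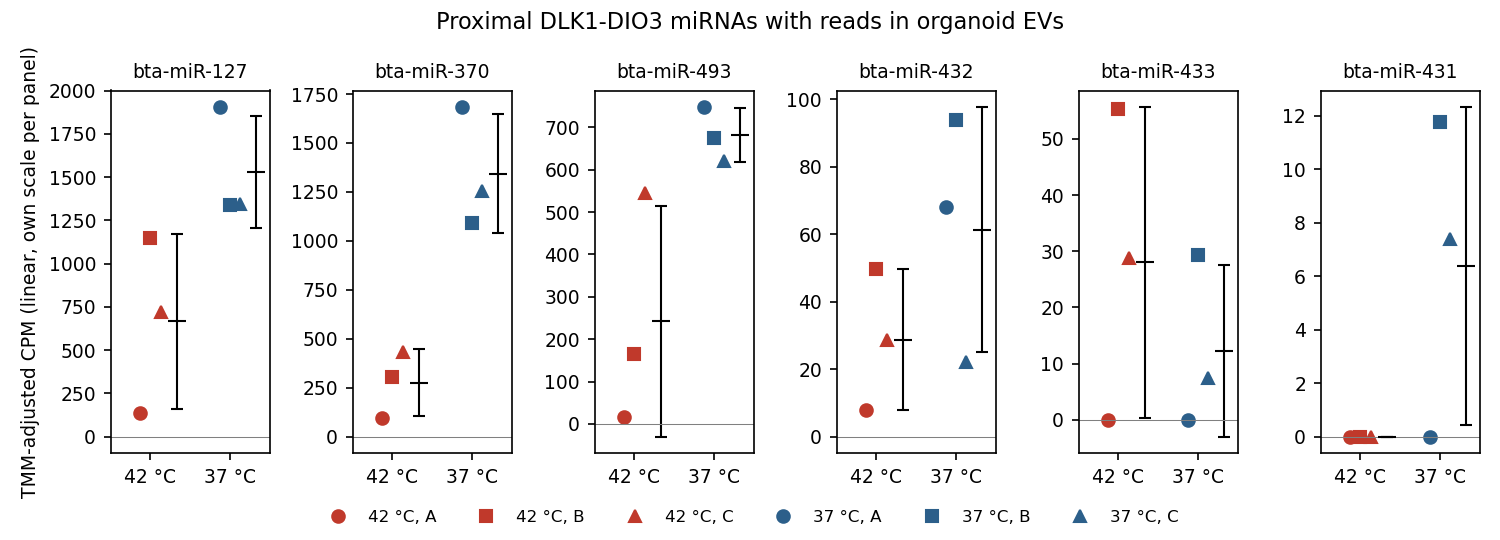
TMM-adjusted CPM (y axis, linear, its own scale in each panel) of the 6 members with reads in the 3 EV libraries at 42 °C (red) and the 3 at 37 °C (blue), with marker shapes for replicates A, B and C and a bar for the mean and SD of each group. For bta-miR-127, bta-miR-370 and bta-miR-493 each red point lies below each blue point, while for bta-miR-432 and bta-miR-433 the groups overlap.

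A separation of the groups was thus found for 3 of the 5 members tested, and in these all libraries at 42 °C were below all at 37 °C. Over the 251 miRNAs tested, 36 had this pattern (14.3%), and 27 (10.8%) were lower at an unadjusted p under 0.05, among them the same 3 members. The 5 members tested are those with enough reads, so their count does not stand for all 8.

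The other members had few reads. bta-miR-432, whose entry overlaps those of RTL1 and MEG8, had 1, 9 and 1 reads (7.95, 49.8 and 28.7 CPM) at 42 °C, against 4, 16 and 3 reads (68.0, 94.0 and 22.2 CPM) at 37 °C. Its groups overlapped, and the log2 fold change of -0.88 (standard error 0.83, 95% interval -2.68 to 0.91, adjusted p = 0.64, limma) did not pass the test. bta-miR-433, which targets GRB2 in human gastric cancer cells, had 0, 10 and 1 reads (0, 55.3 and 28.7 CPM) at 42 °C, against 0, 5 and 1 reads (0, 29.4 and 7.39 CPM) at 37 °C. It was the only member tested with a positive log2 fold change, 0.63 (standard error 0.89, 95% interval -1.30 to 2.56, adjusted p = 0.75, limma), and the interval spans a change of more than 2-fold in either direction. bta-miR-431, which represses PAX7 in mouse muscle progenitors, had no reads at 42 °C and 0, 2 and 1 reads (0, 11.7 and 7.39 CPM) at 37 °C, under the minimum for testing. bta-miR-665 and bta-miR-136 (also antisense to Rtl1 in mouse) had no read in any library. With 3 reads taken as the limit that a count of 0 allows, they could stand at up to 16.6 to 86.2 CPM in the libraries at 42 °C and up to 17.6 to 51.0 CPM in those at 37 °C, so that a difference was not detectable at this depth.

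How the members stood to one another within a library does not depend on the scaling of the libraries. At 37 °C their proportions were nearly the same in each library: bta-miR-127 took between 41.3% and 43.2% of the members' reads, bta-miR-370 between 33.7% and 38.5% and bta-miR-493 between 17.0% and 20.8%. At 42 °C they varied widely, with bta-miR-127 between 41.0% and 66.6%, bta-miR-370 between 17.7% and 37.5% and bta-miR-493 between 6.25% and 31.1%. Replicates A and C at 42 °C held only 32 and 61 reads of the members, so their shares have wide intervals. The share of bta-miR-127 in replicate B at 42 °C, which had 311 such reads, was 66.6% (95% Wilson interval 61.1 to 71.6%), above the interval of each library at 37 °C, the highest of which reached 49.3%. The share of bta-miR-493 was 31.1% (20.9 to 43.6%) in replicate C at 42 °C and 9.65% (6.84 to 13.4%) in replicate B at 42 °C.

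**Figure D2:**
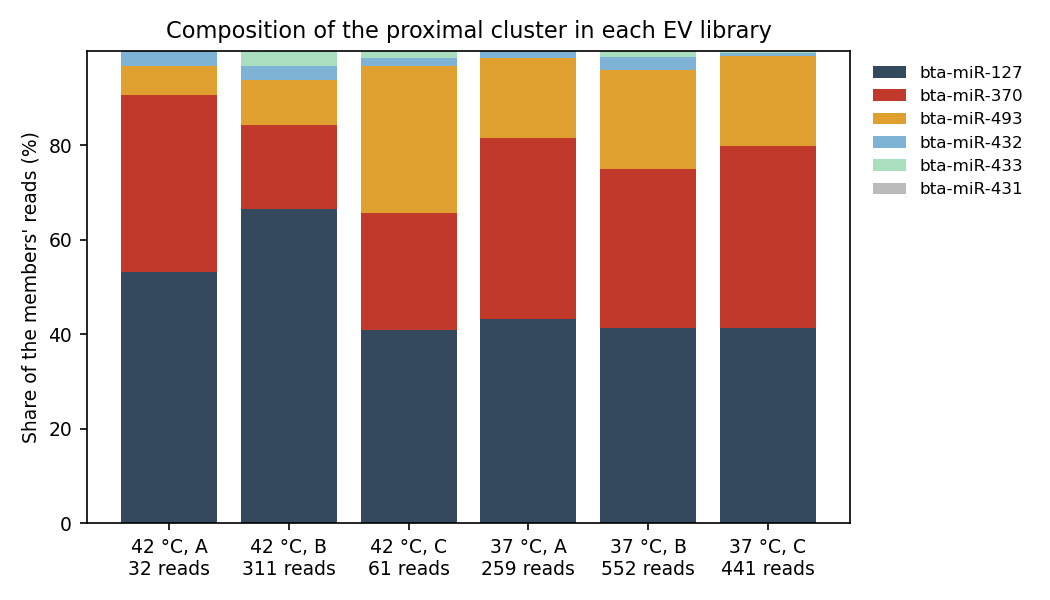
Share of the members' reads (y axis, percent) taken by each member in each EV library (x axis, the 3 at 42 °C left of the 3 at 37 °C, with the number of member reads under each bar). The 3 bars at 37 °C are nearly alike, while bta-miR-127 takes 66.6% in replicate B at 42 °C and bta-miR-493 31.1% in replicate C at 42 °C.

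Between pairs of the abundant members, reads of bta-miR-370 per read of bta-miR-127 were 0.706, 0.266 and 0.600 in the 42 °C libraries, against 0.884, 0.816 and 0.934 in the 37 °C libraries. Each value at 42 °C was below each at 37 °C. The mean log2 ratio was -1.05 ± 0.76 at 42 °C and -0.19 ± 0.10 at 37 °C (SD, n = 3 each), a difference of -0.86 (p = 0.1 by an exact two-sided permutation test, adjusted to 0.3 over 3 pairs). With 3 libraries a group this test can give no p under 0.1. Without replicate B at 42 °C the difference was -0.43. The exact 95% interval of the ratio in replicate B at 42 °C, 0.194 to 0.359, lay below those of all libraries at 37 °C, whereas the intervals of replicates A (0.308 to 1.57) and C (0.294 to 1.18) at 42 °C overlapped them. For bta-miR-493 over bta-miR-127 the difference in log2 ratio was -0.94, and the groups overlapped (exact two-sided permutation test, p = 0.4; adjusted 0.6). It was -0.44 without replicate A at 42 °C and -1.79 without replicate C at 42 °C. For bta-miR-370 over bta-miR-493 the difference was 0.08 (exact two-sided permutation test, p = 0.9; adjusted 0.9), and its sign turned without replicate A at 42 °C (-0.69) and without replicate B at 37 °C (-0.05).

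The deposited columns differ in their sums, which were highest in replicate C at 42 °C (2084370) and lowest in replicate A at 37 °C (538100). When every library was rescaled to 1000000, the log2 fold changes were -3.12 for bta-miR-370, -3.04 for bta-miR-493 and -2.29 for bta-miR-127. All 3 passed the test (adjusted p = 3.8e-04, 0.0017 and 0.016, limma), as did 6.37% of all miRNAs in this direction. In that fit limma took each variance almost wholly from the trend over the miRNAs, so these p-values hardly reflect a member's own spread between libraries. This scale also moved the median of all 251 miRNAs to -0.54, against -0.01 on the deposited scale. Relative to that median the changes were -2.58, -2.50 and -1.76, against -2.43, -2.33 and -1.60 on the deposited scale. With miR-1246 left out of the sum, the median was -0.46, and the same 3 members passed, with log2 fold changes of -2.95, -2.92 and -2.11 (adjusted p = 0.0038, 0.046 and 0.046, limma). On that scale 3.98% of all miRNAs passed in this direction. bta-miR-433 kept a positive sign on each of these scales.

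**Figure D3:**
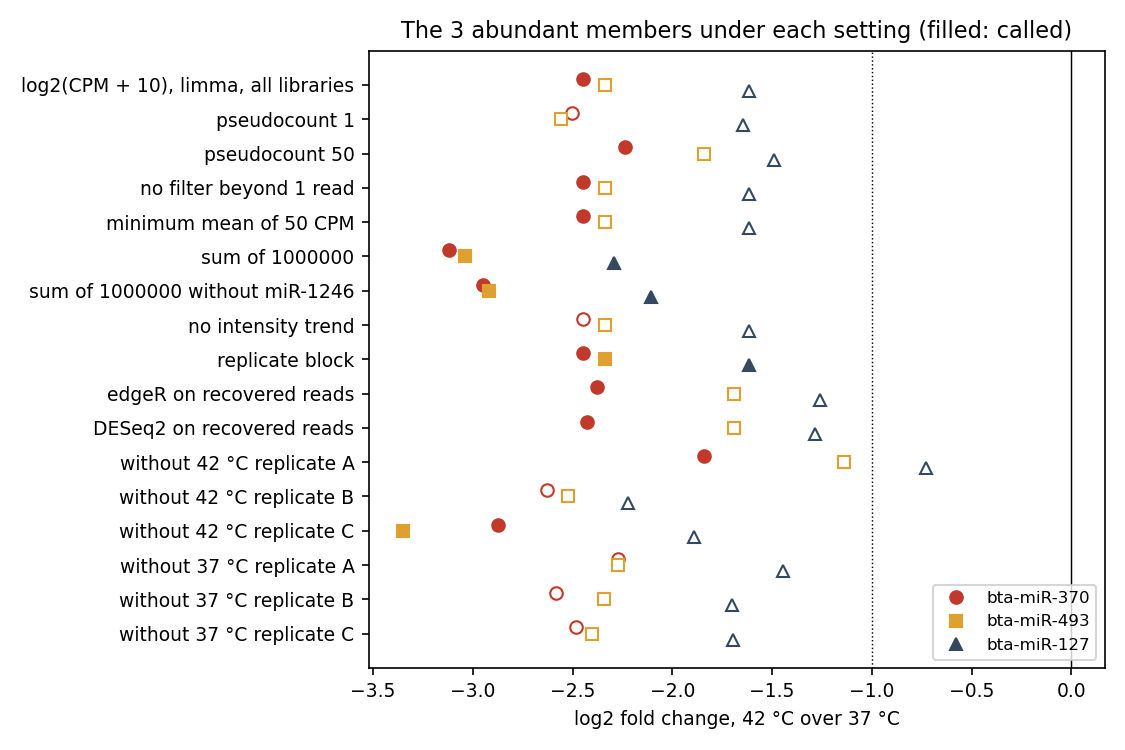
Log2 fold change of 42 °C over 37 °C (x axis) of bta-miR-370 (circles), bta-miR-493 (squares) and bta-miR-127 (triangles) as reported and under 16 alternatives (rows), filled where the miRNA was called. All points are negative. bta-miR-370 is filled in 11 of the 17 settings, and the point nearest to 0 is bta-miR-127 without replicate A at 42 °C, at -0.73.

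The miRNAs of the distal part of the region, from miR-379 to miR-656, were taken as the other genes of the locus. Of 51 such rows in the table, 20 had reads and 14 were tested, and 0 were called by limma, edgeR or DESeq2, while 7, 6 and 6 of them were lower at an unadjusted p under 0.05. Over all 251 miRNAs the shares at that unadjusted p were 10.8% in limma, 9.16% in edgeR and 7.57% in DESeq2. On the rescaled libraries limma called 5 of the 14 as lower, where 6.37% of all miRNAs were called so. It called 2 when miR-1246 did not count in the sum (3.98% of all) and 3 with no intensity trend (1.99% of all). Without replicate C at 42 °C it called 1 as lower, where 4 of all 253 miRNAs tested were called so. All libraries at 42 °C were below all at 37 °C for 8 of the 14, beside 3 of the 5 proximal members tested and 14.3% of all miRNAs. Most of these 8 averaged under 10 CPM at 42 °C and were tested only through their 37 °C values. The filter thus favoured this pattern, and the counts and median of the distal miRNAs are descriptions only. On the deposited scale the log2 fold changes of the 14 lay between -2.85 and -0.09 with a median of -1.72, beside a median of -1.61 over the 5 proximal members and -0.01 over all 251 miRNAs. 5 of the 14 had no reads in the 42 °C libraries, and with these set to what 3 reads over the 42 °C group allow, the median was -1.14. In edgeR and DESeq2, 12 of the 14 were negative. Of the 4 most abundant, bta-miR-379, the first of the distal cluster, had 23.8, 66.4 and 172 CPM at 42 °C, against 323, 317 and 222 CPM at 37 °C (log2 fold change -1.91, adjusted p = 0.17, limma). bta-miR-381 (log2 fold change -0.91), bta-miR-543 (-0.12) and bta-miR-134 (-1.79), the others of these 4, overlapped between the groups. There were 1.52, 2.64 and 3.05 proximal reads per distal read in the 42 °C libraries, against 3.05, 2.95 and 2.74 in the 37 °C libraries. The groups overlapped, and the lowest value, in replicate A at 42 °C, rests on 32 proximal and 21 distal reads.

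**Figure D4:**
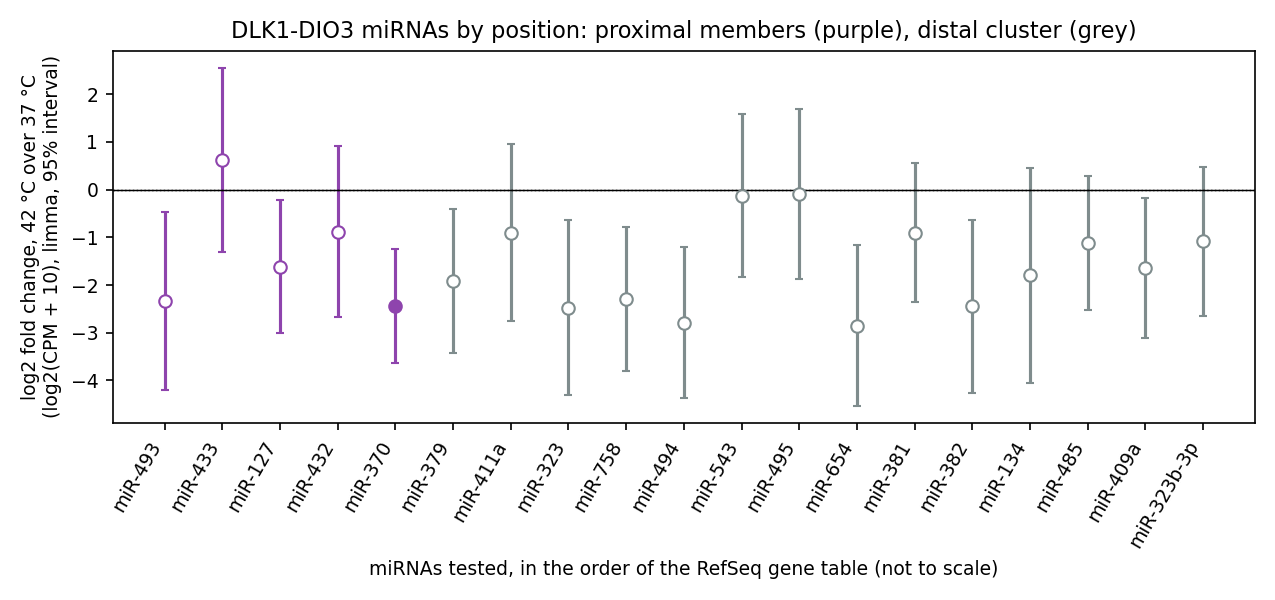
Log2 fold change of 42 °C over 37 °C with its 95% interval (y axis, limma on log2(CPM + 10)) of the 19 miRNAs of the locus that were tested, in gene order (x axis, not to scale), with the 5 proximal members in purple, the 14 distal miRNAs in grey and a dotted line at the median of all 251 miRNAs, which at -0.01 nearly coincides with the line at 0. bta-miR-370 is the only filled (called) point, and bta-miR-433 is the only one above 0, where edgeR and DESeq2 gave 12 of the 14 distal miRNAs a negative sign.

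The miRNAs with the profile most like that of each abundant member were found by the root mean square distance of log2(CPM + 10), centred over the 6 libraries. For bta-miR-370 these were bta-miR-379 (0.41), bta-miR-127 (0.60) and bta-miR-574 (0.62), where the median distance to the 250 other miRNAs was 1.60. For bta-miR-493 they were bta-miR-379 (0.65), bta-miR-370 (0.70) and bta-miR-127 (0.83), with a median distance of 1.91. For bta-miR-127 they were bta-miR-574 (0.36), bta-miR-484 (0.46) and bta-miR-381 (0.59), with a median of 1.42. Of these, bta-miR-379 and bta-miR-381 belong to the distal cluster, while bta-miR-574 and bta-miR-484 are not of the locus. bta-miR-574 had 23.8, 149 and 86.2 CPM at 42 °C, against 204, 229 and 251 CPM at 37 °C. The distances are descriptions over 6 libraries, and all miRNAs share the depth and scaling of these libraries.

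Markers of other cell types were summed on the same scale. Stromal miRNAs, 7 of 7 with reads, ranged from 6861 to 22459 at 42 °C and from 5810 to 18203 at 37 °C and overlapped. Leukocyte miRNAs, 7 of 7 with reads, ranged from 8412 to 24168 at 42 °C and from 5201 to 5857 at 37 °C and did not overlap. Neuronal miRNAs, 4 of 5 with reads and bta-miR-9-3p at 0, ranged from 10212 to 25535 at 42 °C and from 8160 to 9439 at 37 °C and did not overlap either. In CPM, several single miRNAs of the leukocyte and of the neuronal list overlapped between the groups, so these sums do not stand for each marker. Erythroid miRNAs, 3 of 3 with reads, ranged from 31241 to 201058 at 42 °C and from 34468 to 91216 at 37 °C, and overlapped. bta-miR-122, of liver, ranged from 18094 to 111446 at 42 °C and from 35423 to 48704 at 37 °C. The highest erythroid and liver values were both in replicate B at 42 °C, the library with the highest share of bta-miR-127 among the members. On the same scale, the members summed to 516, 1985 and 2978 in the 42 °C libraries, against 10914, 7348 and 6249 in the 37 °C libraries. The part of these cell types in the values of the members was not tested.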

How the data were processed

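Small RNA of EVs was sequenced in 6 libraries, 3 per temperature. After adapter trimming, the authors assigned reads to bovine miRBase entries with CLC Genomics Workbench and deposited TMM-adjusted CPM, a signal of 0 or above whose columns do not sum to 1000000. The submitters' processing notes also name bcl2fastq, Bowtie2 2.2.2, DESeq2 and build ARS-UCD1.2, without roles. Divided by the smallest value above 0 in its library, 100% of values came out whole (tolerance 0.01), and these whole numbers were taken as reads.

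miRNAs were tested where either group averaged 10 CPM or more (251 miRNAs). The test was limma 3.58.1 (R 4.3.3) on log2(CPM + 10), unpaired and with an intensity trend. p-values were adjusted by Benjamini-Hochberg, and a call needed an adjusted p below 0.05 and a 2-fold change. The thresholds follow the study, whose negative binomial GLM needs counts. edgeR 4.0.16 and DESeq2 1.42.0 on the recovered reads, other pseudocounts, filters and scales, no trend, a replicate block and each library left out were alternatives. The code was tested on simulated data. p-values rest on the spread between libraries, each from a pool of animals, and this spread includes counting noise. In limma the variance of each miRNA is also drawn toward a trend over the miRNAs tested. With every library rescaled to 1000000 and with the replicate block it came almost wholly from that trend. Calls in these 2 fits therefore rest little on the spread of single miRNAs.

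The text names the 8 members, the 3 nearest profiles of each abundant member and the 4 most abundant distal miRNAs. Members and lists were chosen with earlier results of these data known. Libraries of a group differed beyond sampling noise (chi-square per degree of freedom at least 20.5).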

Additional observations from a re-analysis of the deposited data

How the results depend on the processing

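bta-miR-127, bta-miR-370, bta-miR-493, bta-miR-432 and bta-miR-433 kept their sign in every alternative in which they were tested. The number of miRNAs called, 6 of 251 as reported, was 10 with a minimum mean of 50 CPM, 20 when every library was rescaled to 1000000, 14 when miR-1246 did not count in that sum, 10 with no intensity trend, 11 in edgeR, 18 in DESeq2 and between 1 and 9 with a library left out (1 without replicate B and 3 without replicate C at 37 °C). The calls were 2 lower and 4 higher at 42 °C as reported, 16 lower and 4 higher on the rescaled libraries, and 10 lower and 4 higher when miR-1246 did not count. The members called, 1 as reported, numbered 0 with a pseudocount of 1 and with no intensity trend, 3 on either scale of 1000000 and between 0 and 2 with a library left out. On these scales bta-miR-127 (-2.29 and -2.11) and bta-miR-493 (-3.04 and -2.92) gained a call, while bta-miR-370 lost its call with a pseudocount of 1 (-2.50) and no trend (-2.45). With a library left out, the log2 fold change ranged from -2.87 to -1.84 for bta-miR-370 and from -3.35 to -1.14 for bta-miR-493. The log2 ratio of bta-miR-370 to bta-miR-493, 0.08, was -0.068 with 1 read added to each and between -0.69 and 0.77 with a library left out. With the replicate letter as a block, 15 miRNAs were called, among them 3 members (bta-miR-370, bta-miR-127 at -1.61 and bta-miR-493 at -2.34). Libraries of the same letter did not deviate together (r across miRNAs -0.06, 0.03 and -0.06 for A, B and C). Of the 3 at 42 °C, 0 correlated best with its own letter. Correlations were weak for all letters (r from -0.11 to 0.16) and many miRNAs had few reads, so this check cannot exclude a pairing. The libraries were fitted unpaired because no library is tied to given animals. The causes of the changes between settings were not tested. Depth limits bta-miR-432, bta-miR-433, bta-miR-431, bta-miR-665 and bta-miR-136, with at most 16 reads in a library.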
